A study of Homo sapiens with 76 samples.

Results

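HOX genes of the 4 human clusters were examined in 76 single HEK293 cells, an established human embryonic kidney line. The members were all gene rows whose symbol begins with HOX, a cluster letter from A to D and a number, which took 35 of the 17513 gene rows. Described here are 34 of them, 31 protein-coding genes and 3 antisense transcripts (HOXA10-AS, HOXA11-AS and HOXC13-AS), and all HOX sums are over these 31 coding genes. Each value is a count of unique molecular identifiers (UMIs), random tags added at the 5' end of a cDNA so that copies of 1 molecule are counted once. All cells were untreated, grown in DMEM with fetal calf serum and glutamine, and caught and lysed in 1 microfluidic run with spike-in RNA. The labels name no compared group and no replicate cultures, so the 76 cells were treated as 1 sample, and no test between groups was made.

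HOX genes encode homeodomain transcription factors that set the position of structures along the body axis. They lie in the clusters HOXA, HOXB, HOXC and HOXD, and genes at matching places in different clusters form a paralog group, numbered from 1 to 13. In the embryo, low-numbered groups are expressed from the head end and high-numbered groups in more posterior and distal structures, among them the developing kidney, urogenital tract and limbs. Polycomb complexes keep the clusters silent where they are not used, and MLL-type histone methyltransferases keep them active.

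UMIs of all 4 clusters were counted in HEK293 cells, at low levels, with most of them from the posterior groups 9 to 13. Of the 13 paralog groups 12 gave a UMI, although group 1 did so only through 3 UMIs of HOXD1, too few to be read as expression. HOXA10 (97 UMIs over all cells) and HOXD13 (96 UMIs) led, and together gave 26.3% of the 733 UMIs of these coding HOX genes. HOX UMIs made up 43.3 of each 100000 endogenous UMIs (exact Poisson 95% interval 40.2 to 46.6). At least 1 HOX UMI was seen in 73 of 76 cells (96.1%, exact Clopper-Pearson 95% interval 88.9% to 99.2%). The 3 cells without one had 9668, 10011 and 13360 endogenous UMIs, against a median of 20966 and a range of 7305 to 43392 over all cells. All intervals given here cover counting error only.

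Because UMIs were counted from the 5' end, the transcript start is the part of each gene that the assay reads. The promoter windows of the 2 leading genes and of their group 11 relatives HOXD11 and HOXA11 are shown for that reason, from RefSeq (GRCh38.p14), 250 bases before to 50 after a start site, 5′ to 3′ on the gene's strand. Capitals mark CG dinucleotides and the letters TATAAA or their reverse complement TTTATA, and HOXA10 has 2 windows because RefSeq gives it 2 start sites. The count table does not say which start a UMI came from.
HOXD13, chr2:176092471-176092770, plus strand: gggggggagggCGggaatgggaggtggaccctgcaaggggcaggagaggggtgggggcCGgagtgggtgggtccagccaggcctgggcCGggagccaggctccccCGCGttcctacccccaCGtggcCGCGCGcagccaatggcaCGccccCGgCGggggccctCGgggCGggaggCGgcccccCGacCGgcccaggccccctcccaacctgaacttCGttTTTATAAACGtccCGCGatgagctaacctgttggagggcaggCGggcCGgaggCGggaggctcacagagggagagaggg
HOXD11, chr2:176107030-176107329, plus strand: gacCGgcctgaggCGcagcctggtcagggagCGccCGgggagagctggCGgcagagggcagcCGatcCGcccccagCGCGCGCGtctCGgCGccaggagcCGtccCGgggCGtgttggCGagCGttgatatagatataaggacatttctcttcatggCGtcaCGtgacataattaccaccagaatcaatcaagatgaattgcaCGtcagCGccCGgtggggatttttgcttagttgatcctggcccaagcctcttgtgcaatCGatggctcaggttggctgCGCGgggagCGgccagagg
HOXA10, first start, chr7:27179812-27180111, minus strand: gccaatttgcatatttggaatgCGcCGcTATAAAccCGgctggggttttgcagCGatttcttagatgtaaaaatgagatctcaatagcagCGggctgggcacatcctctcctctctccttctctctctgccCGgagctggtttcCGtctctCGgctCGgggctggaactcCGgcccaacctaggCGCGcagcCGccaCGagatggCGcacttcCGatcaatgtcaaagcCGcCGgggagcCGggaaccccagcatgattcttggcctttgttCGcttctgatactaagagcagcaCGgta
HOXA10, second start, chr7:27174271-27174570, minus strand: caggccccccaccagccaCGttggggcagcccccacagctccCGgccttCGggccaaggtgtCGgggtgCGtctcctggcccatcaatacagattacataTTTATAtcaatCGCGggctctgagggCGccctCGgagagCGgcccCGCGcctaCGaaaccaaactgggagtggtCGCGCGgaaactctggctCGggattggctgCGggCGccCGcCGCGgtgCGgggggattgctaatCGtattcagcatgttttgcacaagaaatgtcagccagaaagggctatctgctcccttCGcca
HOXA11, chr7:27185183-27185482, minus strand: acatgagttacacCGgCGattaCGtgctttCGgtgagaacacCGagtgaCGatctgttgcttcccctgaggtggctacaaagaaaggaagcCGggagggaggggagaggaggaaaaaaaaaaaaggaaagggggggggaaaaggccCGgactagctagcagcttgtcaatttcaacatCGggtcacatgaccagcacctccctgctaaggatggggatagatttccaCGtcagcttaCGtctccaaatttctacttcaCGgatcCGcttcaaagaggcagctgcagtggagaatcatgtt

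All of these windows except that of HOXA11 held more CG dinucleotides than the median RefSeq window. HOXD13 held 24 CG dinucleotides, HOXD11 27, the 2 windows of HOXA10 21 and 25, and HOXA11 13, against a median of 14 (quartiles 4 to 28) over 35116 RefSeq windows of 300 bases. RefSeq windows were matched by symbol for 14 of the 31 coding members, 21 windows in all, with a median of 25 CG dinucleotides (0 to 44). All 14 are HOXA or HOXD genes, so these values and the shares below do not cover HOXB or HOXC. In HOXD13 the letters TATAAA began 27 bases before the start site, the usual place of a TATA box, which positions RNA polymerase II. TATAAA on either strand was present in 5 of the 21 HOX windows (23.8%) and in 11.5% of all windows. The letters TTTATNG, where N is any base, resemble the sequence that CDX and posterior HOX proteins are known to bind, and were present on either strand in 5 of 21 HOX windows (23.8%) and 9.73% of all windows. Matches to the 2 motifs overlapped in the HOXA9 window and in the first HOXA10 window. The 7 windows of HOXA3 are included in these shares, so they are not 21 independent genes.

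Of 39 coding HOX genes listed for the human genome, 31 are thus described here, and none of these belongs to paralog group 12. All 34 described members had a UMI in at least 1 cell, as did 96.6% of all gene rows, and 32 had one in at least 2 cells, against 77.7% of all rows. A UMI in at least 20 cells was seen for 8 members (23.5%), against 31.1% of all rows. These were HOXA5, HOXA7, HOXA10, HOXA11, HOXB6, HOXC9, HOXD11 and HOXD13, which held 475 of the 733 coding HOX UMIs (64.8%). Only HOXA10 and HOXD13 were seen in at least 38 cells, 5.88% of members against 16.7% of all rows. The median coding member had 14 UMIs in 12 cells, and the median gene row 10 UMIs in 8 cells.

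**Figure D1:**
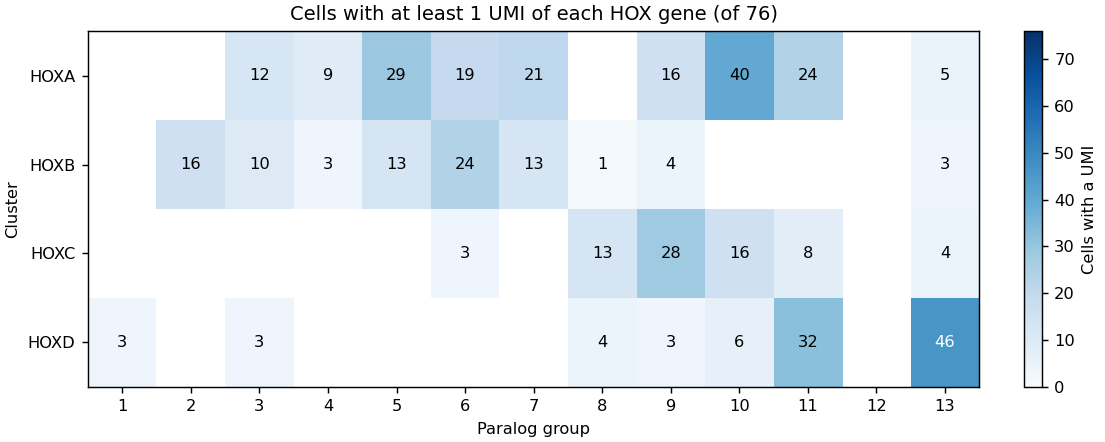
Number of cells, of 76, with at least 1 UMI of each coding HOX gene, by cluster (rows) and paralog group (columns); the colour scale runs from 0 to 76 cells, and empty squares are places with no gene or a gene not described here. HOXD13 (46 cells) and HOXA10 (40 cells) are the darkest squares, and the 4 clusters differ in where along the groups their counts lie.

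The posterior groups 9 to 13 gave 435 UMIs from 14 genes (59.3% of coding HOX UMIs), the central groups 4 to 8 gave 246 from 12 genes (33.6%), and the anterior groups 1 to 3 gave 52 from 5 genes (7.09%). Per 100000 endogenous UMIs these were 25.7 (exact Poisson 95% interval 23.4 to 28.2), 14.5 (12.8 to 16.5) and 3.07 (2.30 to 4.03), so the intervals were apart. A posterior HOX UMI was seen in 72 of 76 cells (94.7%), a central one in 60 (78.9%) and an anterior one in 38. These sums follow the number of genes in each class as well as their levels. Of genes seen in at least 20 cells, 5 were posterior, 3 central and 0 anterior.

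Group 10 was the highest single paralog group with 124 UMIs (exact Poisson 95% interval 103 to 148) in 47 cells, followed by group 11 with 117 (96.8 to 140) in 45 cells and group 13 with 109 (89.5 to 131) in 49 cells. Their intervals overlapped, so no order among these 3 groups was resolved. Group 6 gave 86 UMIs (68.8 to 106), group 9 gave 85 (67.9 to 105), group 5 gave 68 and group 7 gave 54. Fewer still came from group 3 (28 UMIs), group 8 (22), group 2 (21), group 4 (16) and HOXD1 of group 1 (3). In most groups 1 member held the larger part. HOXD13 gave 88.1% of group 13, HOXA10 78.2% of group 10, and HOXD11 52.1% and HOXA11 most of the remainder of group 11.

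The clusters differed in total and in shape, and their totals follow the number of genes described in each as well as their levels. HOXA gave 18.4 UMIs per 100000 (exact Poisson 95% interval 16.4 to 20.5, 311 UMIs from 9 genes), HOXD 10.6 (9.09 to 12.2, 179 UMIs from 7 genes), HOXB 7.92 (6.64 to 9.38, 134 UMIs from 9 genes) and HOXC 6.44 (5.29 to 7.77, 109 UMIs from 6 genes). HOXA stood above the other 3 beyond counting error, while HOXD and HOXB, and HOXB and HOXC, had overlapping intervals. Overlapping intervals are no test of a difference, and none was made. A cell held from 0 to 13 HOXA UMIs (median 3), 0 to 9 HOXD (median 2), 0 to 9 HOXB (median 1) and 0 to 6 HOXC (median 1). HOXA was seen in 63 cells, HOXD in 59, HOXB in 52 and HOXC in 49. A UMI of every cluster was seen in 29 cells, of 3 clusters in 23, of 2 in 17, of 1 in 4 and of none in 3. HOXD UMIs were almost all posterior (168 of 179, 93.9%), as were most HOXC UMIs (89 of 109, 81.7%). HOXB was central for the most part (94 of 134, 70.1%), with 8 posterior UMIs, and HOXA was split between posterior (170, 54.7%) and central genes (127, 40.8%).

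**Figure D2:**
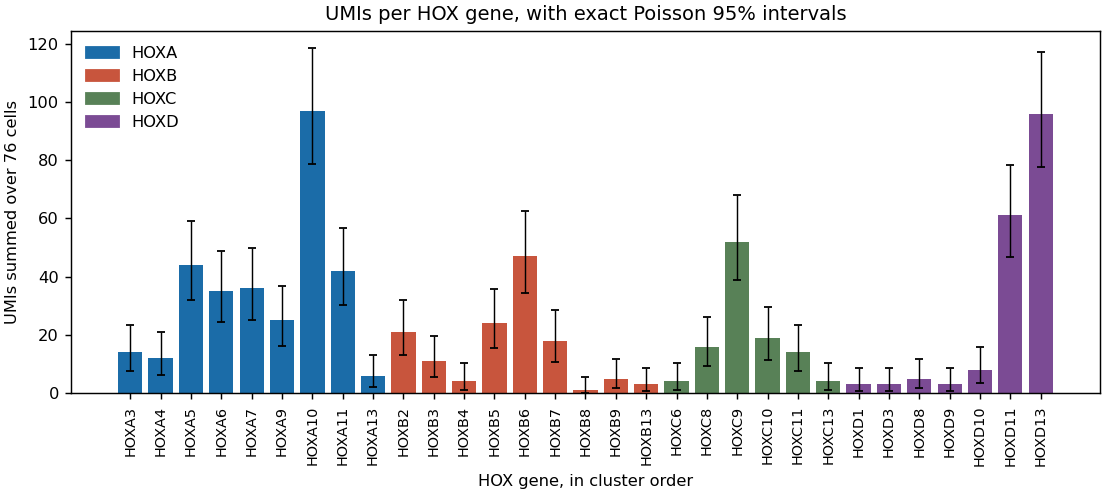
UMIs of each of the 31 coding HOX genes summed over 76 cells (bars, from 0), coloured by cluster and in order of paralog group, with exact Poisson 95% intervals. HOXA10 and HOXD13 stand at 97 and 96 UMIs, and the anterior HOXD genes HOXD1 and HOXD3 at 3 each.

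HOXA10, a group 10 gene needed for patterning of the uterus and lumbar skeleton, ranged from 0 to 8 UMIs per cell with a median of 1. It was at 0 in 36 cells, 1 in 17, 2 in 8, 3 in 8, 4 in 3, and 6 to 8 in 4 cells. Thus 40 cells (52.6%, exact Clopper-Pearson 95% interval 40.8% to 64.2%) had a UMI and 23 had at least 2. In RefSeq HOXA10 overlaps the antisense gene HOXA10-AS and the readthrough gene HOXA10-HOXA9. HOXA10-AS gave 17 UMIs in 12 cells, 6 of which also had HOXA10.

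HOXD13, a group 13 gene of digit and genital development, ranged from 0 to 7 UMIs with a median of 1. It was at 0 in 30 cells, 1 in 22, 2 in 13, and 3 to 7 in 11 cells. It was seen in more cells than any other member (46 of 76, 60.5%, exact Clopper-Pearson 95% interval 48.6% to 71.6%), although the interval overlapped that of HOXA10. The other members of its group were rare: HOXA13 gave 6 UMIs in 5 cells, HOXC13 gave 4 in 4 cells and HOXB13, a prostate-associated gene, gave 3 in 3 cells.

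The group 11 genes act together in formation of the kidney and forearm. HOXD11 gave 61 UMIs (0 to 7 per cell, median 0), with 32 cells above 0 and 7 UMIs in a single cell. HOXA11 gave 42 UMIs (0 to 6 per cell, median 0) in 24 cells, and 12 cells held both. HOXC11 gave 14 UMIs in 8 cells, of which 5 were in 1 cell. HOXA11-AS gave 17 UMIs in 13 cells, and 5 of those also had HOXA11. The HOXA11 window printed above shares 275 of its 300 bases with that of HOXA11-AS, which starts on the opposite strand. In RefSeq the spans of HOXA11 and HOXA11-AS themselves do not overlap. The strand setting of the counting is not given in the sources used here. For a gene that does overlap its antisense partner, such as HOXA10 with HOXA10-AS, the UMIs may thus not be told apart.

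In group 9, HOXC9, which takes part in thoracic motor neuron identity, gave 52 UMIs (0 to 4 per cell, median 0) in 28 cells, 16 of them with at least 2. HOXA9, a regulator of blood stem cells, gave 25 UMIs (0 to 3 per cell) in 16 cells. HOXB9 gave 5 UMIs and HOXD9 3. Of the remaining group 10 genes, HOXC10 gave 19 UMIs in 16 cells, with 4 in 1 cell and 1 in each of the others, and HOXD10 gave 8 in 6 cells. HOXC9 thus stood above its neighbours HOXC8 (16 UMIs in 13 cells) and HOXC10 beyond their Poisson intervals (38.8 to 68.2 against 9.15 to 25.98 and 11.4 to 29.7).

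Central genes were led by HOXB6, HOXA5, HOXA7 and HOXA6. HOXB6 gave 47 UMIs (0 to 8 per cell, median 0) in 24 cells, with 1 cell at 8. HOXA5, which is required for development of the respiratory tract, gave 44 UMIs (0 to 3 per cell, median 0) in 29 cells. HOXA7 gave 36 UMIs (0 to 5) in 21 cells and HOXA6 35 (0 to 5) in 19 cells. HOXB5 followed with 24 UMIs in 13 cells and HOXB7 with 18 in 13 cells. HOXA4, HOXB4, HOXB8, HOXD8 and HOXC6 gave 12, 4, 1, 5 and 4 UMIs. In RefSeq the gene span of HOXC6 overlaps those of HOXC4 and HOXC5, and how reads of the shared part were assigned is not given in the sources used here. HOXB5 and HOXB6 both overlap HOXB-AS3, and HOXA5, HOXA6 and HOXA7 overlap HOXA-AS3. The central genes HOXA4, HOXA5 and HOXA6 also overlap the anterior gene HOXA3, and HOXB4 overlaps the anterior gene HOXB3. How reads shared across these classes were assigned is likewise not given. In all, 19 of the 31 coding members overlap another RefSeq gene.

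Anterior genes were the sparsest. HOXB2, which acts in hindbrain segmentation, gave 21 UMIs (0 to 3 per cell) in 16 cells, HOXA3 gave 14 in 12 cells and HOXB3 11 in 10 cells. HOXD1 and HOXD3 gave 3 UMIs each in 3 cells. Beside such low counts stand genes of lineages that these cells should lack. Of 19 such genes listed, only 3 had a row in the count table, and HBA1 was the highest of these. The globin gene HBA1 gave 5 UMIs in 5 cells, and of the liver genes APOA1 gave 1 UMI in 1 cell and FGG 0 in 76 cells. A count of 0 leaves room for a UMI in 3.95% of cells (the limit of 3 counts; the exact upper bound is 4.74%). These 3 genes are too few to set a background level, so a HOX gene seen in a few cells was not read as expressed. Of the 31 coding HOX genes, 11 were seen in 5 cells or fewer, 12 in 6 to 19 cells and 8 in at least 20.

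Per cell, HOX counts followed depth. A cell held 0 to 28 HOX UMIs (median 8.5, mean 9.64 ± 6.49, SD over 76 cells) from 0 to 13 HOX genes (median 5, mean 5.67 ± 3.11). HOX UMIs rose with endogenous UMIs over the 76 cells (Pearson r = 0.730, Spearman rho = 0.674, and r = 0.686 without the 2 cells farthest from the median depth), as a description of cells from 1 run. The share of HOX UMIs had rho = 0.182 with depth. The 38 cells under the median depth held a median of 4 HOX genes and the 38 others 7, while the pooled level was 38.4 and 45.9 HOX UMIs per 100000. When 71 cells were thinned to 10940 UMIs each, the median cell held 4 HOX genes (0 to 8) and 5 HOX UMIs.

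**Figure D3:**
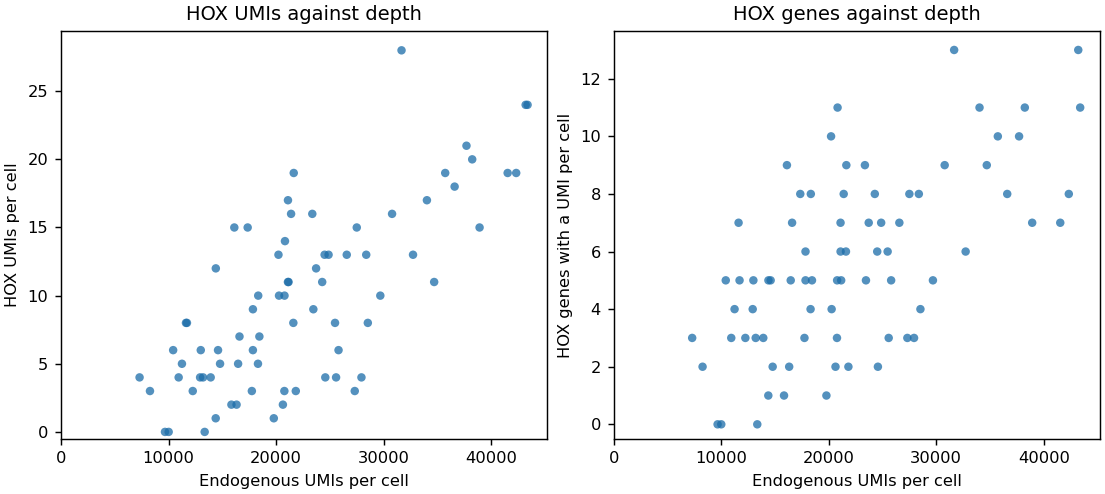
HOX UMIs (left) and HOX genes with a UMI (right) per cell against the cell's endogenous UMIs; each point is 1 of 76 cells. Both rise with depth, and the 3 cells at 0 HOX UMIs have 9668 to 13360 endogenous UMIs.

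The spread of single HOX genes between cells lay within, above or below the quartiles of other genes of similar abundance. The Pearson dispersion compares a gene's counts with those expected from the cells' totals, and is 1 for pure counting noise. For the 12 coding members with at least 20 UMIs it ran from 1.18 to 3.01 with a median of 1.47. Each was set beside non-member genes whose totals differed by at most 25%. Of the 12, 6 lay within the quartiles of those genes, 4 above and 2 below, and 1 lay above the 95th percentile. The 19 spike-in RNAs with 20 to 100 UMIs, scaled by spike-in totals, had a median of 1.71 (1.31 to 2.57). On that scale the median of the 12 HOX genes was 1.82, and the HOX values below are on the scale of endogenous totals unless stated. HOXB6 was highest at 3.01, against quartiles of 1.27 to 1.76 over 1424 genes of like total. Without the 1 cell with 8 UMIs it was 2.12. HOXA10 had 2.23 (quartiles of 979 like genes 1.37 to 1.86) and 2.17 without its highest cell. HOXD11 had 1.85 (upper quartile of its like genes 1.80) and 1.27 without the cell holding 7 UMIs. HOXB5 lay at 1.78, also above the upper quartile of its like genes (1.73). At nearly the same total as HOXA10, HOXD13 had 1.24, below the lower quartile of its like genes (1.37). HOXA5 was likewise below its lower quartile, at 1.18 against 1.26. Scaled by spike-in totals, HOXD13 had 1.72, HOXA5 1.32 and HOXA10 2.48. Quartiles of like genes were not computed on that scale. HOXA10 and HOXD13 thus had 97 and 96 UMIs spread over 40 and 46 cells, where 979 and 999 genes of like total were each seen in a median of 43 cells. The difference between the 2 genes was not tested.

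**Figure D4:**
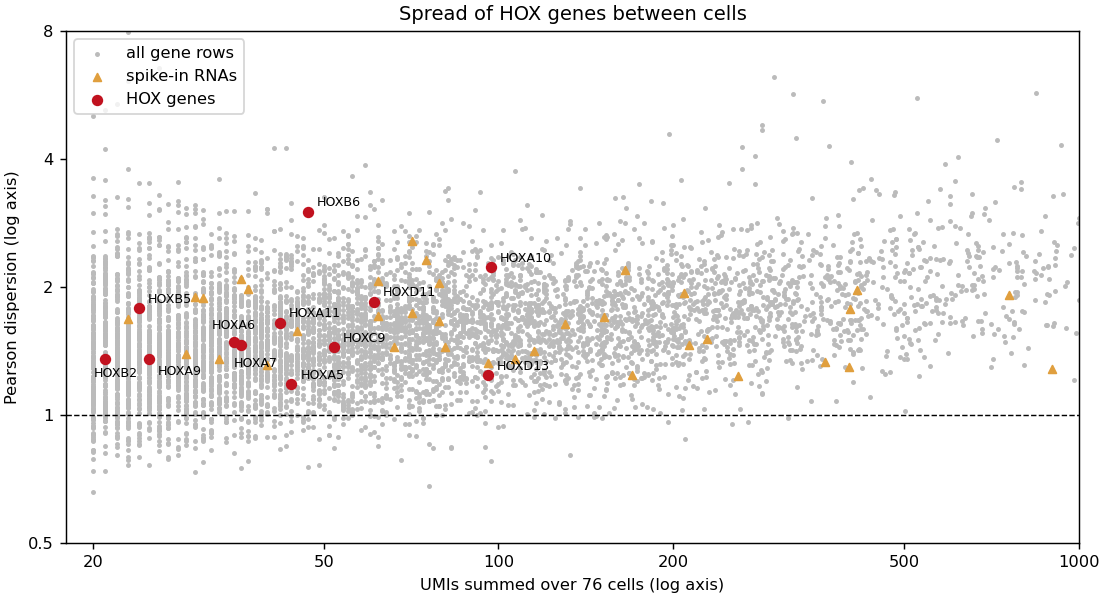
Pearson dispersion against UMIs summed over 76 cells (both axes logarithmic) for HOX genes (red, named), all gene rows with at least 20 UMIs (grey) and spike-in RNAs (triangles); the dashed line at 1 is pure counting noise, and values beyond the axes are not drawn. HOX genes and gene rows are scaled by endogenous totals, and spike-in RNAs by spike-in totals. HOXB6 (3.01) and HOXA10 (2.23) lie high and HOXD13 (1.24) and HOXA5 (1.18) low among genes of like total.

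The counts of HOX genes were weakly correlated between cells. Among the 8 genes seen in at least 20 cells, Spearman rho of their shares ran from -0.11 to 0.28 over 28 pairs with a median of 0.08, as a description over 76 cells that share 1 run. For 3059 other genes seen in 21 to 46 cells the median over pairs was 0.04 (quartiles -0.04 to 0.12, 95th percentile 0.23), and 5 of the 28 HOX pairs (17.9%) lay above that percentile. The 28 pairs share 8 genes and are not independent. The highest value was that of HOXA10 with HOXD13 (rho = 0.28), both seen in 31 cells and at least 1 of them in 55. HOXA5 with HOXB6 had rho = 0.28 and both were seen in 14 cells. The neighbouring genes HOXA10 and HOXA11 had the lowest value, -0.11, with both in 12 cells. Pairs within a cluster had a median of 0.03 (7 pairs) and pairs between clusters 0.10 (21 pairs). At counts this sparse a weak correlation is no finding. A single cell held all 8 genes and 7 cells held none of them.

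**Figure D5:**
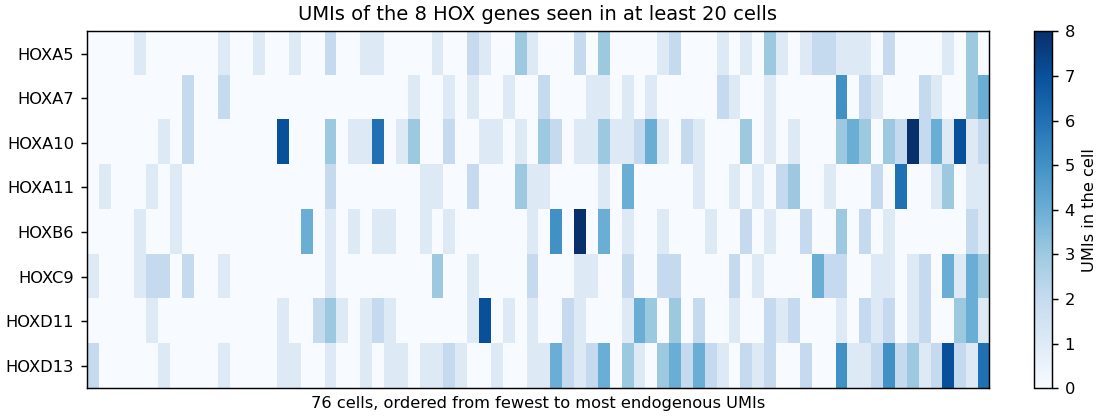
UMIs (colour, 0 to 8) of the 8 HOX genes seen in at least 20 cells, in 76 cells ordered from fewest to most endogenous UMIs. Most squares are at 0 or 1, and the highest values of HOXA10 and HOXB6 (8 UMIs each) lie in different cells.

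Other non-coding transcripts of the clusters were measured alongside. Of 16 listed beside the 3 antisense members, 11 were analysed here and 10 had a UMI. HOTAIRM1, a myeloid-associated transcript of the HOXA cluster, gave 58 UMIs (exact Poisson 95% interval 44.04 to 74.98) in 33 cells. HOXB-AS3 gave 36 UMIs in 22 cells and HOXB6, which it overlaps, 47 in 24, with both in 9 cells. HOXD-AS2 gave 15 UMIs in 12 cells and HOXC-AS1 10 in 7 cells. HOTAIR, the HOXC transcript known for its link to Polycomb, gave 2 UMIs in 1 cell.

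Several genes listed as flanking the clusters gave more UMIs than any coding HOX gene described here. Of those listed for HOXA, HNRNPA2B1 and CBX3 gave 868 and 618 UMIs, and for HOXB, ATP5G1 and SNF8 gave 1179 and 113. Those for HOXC were ATP5G2 and HNRNPA1 with 2593 and 1765, and for HOXD ATP5G3 and HNRNPA3 with 1999 and 190. Among the products of these genes are RNA-binding proteins, a heterochromatin protein and subunits of ATP synthase. EVX1, the homeobox gene at the end of HOXA, gave 1 UMI. Some closer neighbours were in the range of the leading HOX genes, such as SKAP2 (74 UMIs in 37 cells) beside HOXA and MTX2 (73 in 43 cells) beside HOXD.

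HOX proteins bind DNA with TALE homeodomain partners, whose transcripts were sparse here. The 8 described here all had a UMI, 72 UMIs in all, and 0 of 8 were seen in at least 20 cells, where 96.6% of all gene rows had a UMI and 31.1% were seen in at least 20 cells. PKNOX1 gave 31 UMIs in 19 cells, PBX3 16 in 12 and MEIS2 11 in 9, while MEIS1 gave 2.

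Regulators of the clusters were seen more widely than the HOX genes, and their counts in at least 20 cells stand beside a share of 31.1% over all gene rows. Of 11 genes of Polycomb complex PRC2 all were detected and 7 were seen in at least 20 cells. Among them were the histone chaperones RBBP7 (529 UMIs in 73 cells) and RBBP4 (388 in 72), which also serve other complexes, and the methyltransferase EZH2 (107 in 47). Of 19 PRC1 genes 9 were seen in at least 20 cells, led by CBX6 (113 UMIs in 52 cells), PCGF1 (56 in 32) and CBX2 (54 in 36). Of the 14 MLL complex and related genes analysed here, 8 reached that level. DPY30 gave 421 UMIs in 71 cells, PSIP1 202 in 63, WDR5 151 in 57 and the methyltransferase KMT2A itself 41 in 21. All 7 genes of CTCF and cohesin, which fold the clusters into domains, reached it too, with SMC1A at 335 UMIs in 65 cells, SMC3 at 217 in 62 and CTCF at 53 in 32.

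Of the 12 retinoic acid pathway genes described here, 2 were seen in at least 20 cells: the binding protein CRABP2 (293 UMIs in 68 cells) and the synthesis enzyme ALDH1A2 (40 in 26). The receptors were sparser, with RXRA at 24 UMIs and RARA and RXRB at 14 each. Of the 13 other homeobox genes described here, 1 reached 20 cells, CDX2, a regulator of posterior HOX expression in the embryo (43 UMIs in 26 cells). EN2 gave 26 UMIs in 19 cells. Both counts in at least 20 cells stand beside the 31.1% of all gene rows.

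The line was checked against markers of the lineages it is described by. Of 20 kidney epithelial genes listed, 10 had a row in the count table and were analysed here. KRT18 was seen in 45 cells, CDH2 in 35, KRT8 in 19 and the nephron progenitor gene SIX2 in 12. SALL1, LHX1 and EYA1 were seen in 6 cells each and WT1 in 2. The epithelial markers EPCAM and KRT19 were seen in 1 cell each, and PAX2 and PAX8 had no row under those symbols. Of 12 neuronal genes listed, only 5 had a row and were analysed here. UCHL1 was seen in 70 cells, NEFM in 49 and NEFL in 26. SYP was seen in 5 cells and MAP2 in 0. Their relation to HOX counts was not tested.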

How the data were processed

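The authors deposited 1 table of raw UMI counts, with genes in rows and cells in columns. Per the submitters' processing notes, STAR 2.4.0a, cutadapt 1.2.1 and the builds hg19 and GRCh37 were involved, in no stated role. How UMIs were counted, with which annotation and strand setting, is not given in the sources used here. A row without a gene name (0.197% of all values) was left out, leaving 17513 gene rows and 80 spike-in rows, and 0 columns were unused. Per the labels, 20000 spike-in molecules were added per cell.

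Endogenous UMIs ran from 7305 to 43392 per cell, which leaves genes with few UMIs governed by counting error. Sums have exact Poisson intervals and shares of cells exact Clopper-Pearson intervals (95%, scipy 1.17.1). UMIs count 5' ends, so levels were not divided by transcript length. Thinning drew UMIs without replacement, once. Promoter sequences are from RefSeq and were matched by symbol; the count table carries no coordinates. Members seen in at least 20 cells were described in full, and the 2 to 4 members of highest UMIs were named in each related list; further ones named were chosen after their values were seen. The members and lists were chosen with earlier results of these data known. Of the genes taken by the rule and the lists, 5 are not reported here and enter no sum over members or lists. A gene listed under both its older and its newer symbol was counted once.
Alternatives tried were leaving out shallow cells or the highest cell, thinning, detection at 2 UMIs, other scales and adding antisense rows; no test between groups was run.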

Additional observations from a re-analysis of the deposited data

How the results depend on the processing

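Of 68 alternative values for the main results, 61 stayed within the counting interval or, for counts and medians, within 1.5 times of the reported value. The other 7 moved, 6 when 71 cells were thinned in 1 draw to 10940 UMIs and 1 with detection at 2 UMIs. Some values could not move: HOXB and HOXD have no antisense member, so adding antisense rows left them as they were. Levels on the other scales were put back by the ratio of totals, so those settings changed only the weight of each cell. The median coding gene was seen in 15.8% of cells, in 8.45% thinned and in 2.63% at 2 UMIs, and the median cell held 8.5 HOX UMIs, 5 thinned. Thinned, the share of cells with a UMI was 52.1% for HOXB (68.4% unthinned), 42.3% for HOXC (64.5%) and 61.97% for HOXD (77.6%), and HOXD gave 8.75 UMIs per 100000 (10.6 unthinned). The order HOXA, HOXD, HOXB, HOXC was the same in all 8 settings run, none of which divided by the number of genes. HOXB gave 134 UMIs from 9 genes and HOXC 109 from 6, so per gene HOXC would stand above HOXB. In the unthinned data only HOXA and HOXD, of the neighbours in that order, had intervals apart. The other differences were not tested. Thinned, HOXA10 and HOXD13 were each seen in 40.8% of cells, and HOXD1 and HOXC13-AS had no UMI. Of 189 values for single genes and groups 43 moved: 29 with detection at 2 UMIs, 12 with thinning, and the dispersions of HOXB6 and HOXD11 without their highest cell. With 2 UMIs asked for, HOXD13 was seen in 31.6% of cells and HOXA10 in 30.3%. Leaving out the 5 cells under 10483 UMIs moved none of the results it was run on. No paired analysis was possible because the labels give 1 group and no compared samples. Depth limits all members: most cells hold 0 or 1 UMI of each, and a cell at 0 is not shown to lack the transcript.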
